A study of Mus musculus with 9 samples.

Results

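The respiratory chain and the ATP synthase were followed here through 95 nuclear genes, out of 36410 rows in the count table. The genes were taken by symbol: those beginning with Ndufa, Ndufb, Ndufc, Ndufs, Ndufv, Uqcr, Cox4 to Cox8 or Atp5, with Sdha to Sdhd and Cyc1, and without -ps symbols. They comprise 37 genes counted as subunits of complex I, 8 complex I assembly factors whose symbols begin with Ndufaf and 4 subunits of complex II. The others are 9 subunits of complex III, 20 of complex IV including tissue isoforms, and 17 genes named for the ATP synthase. Ndufb4c, counted with complex I, is a processed pseudogene by GENCODE. The mitochondrially encoded subunits have no row in the table and were not analysed here. RNA-seq libraries came from 3 immortalized mouse striatal cell lines (C57/BL6 by the labels), 3 libraries per line. Knock-in Htt exon 1 has 7 repeats on both alleles of the control line (STHdhQ7/Q7) and 111 on both alleles of the HD-homo line (STHdhQ111/Q111). In the HD-het line (STHdhQ7/Q111) 1 allele has 7 repeats and the other has 111. The repeats are the glutamine tract, written Glu in the labels. All 3 lines were derived from embryos and immortalized, and each genotype is 1 line, so genotype and line cannot be told apart. The labels do not say whether the libraries of a line came from separate cultures, so the p-values measure the spread between these libraries, which may be technical.

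Complex I takes electrons from NADH and complex II takes them from succinate. Both pass them by ubiquinone to complex III, from there by cytochrome c to complex IV and on to oxygen. Complexes I, III and IV pump protons across the inner mitochondrial membrane, and the ATP synthase lets them back through its c ring to drive the catalytic F1 head. Complexes I, III and IV and the ATP synthase are built from products of both genomes, while complex II is wholly nuclear encoded. The striatum is known for its sensitivity to inhibitors of complex II such as malonate.

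The libraries held from 29507665 to 41197931 gene counts. Values are given as normalized CPM, the counts per 1e6 counts of the library after edgeR's TMM scaling. A count of 3 was taken as the floor, which lay between 0.0710 and 0.101 CPM and covers counting error only. Of the 95 members, 87 passed the filter on low counts and were tested among 13508 genes, each line against each other, by edgeR's quasi-likelihood test with an adjusted p under 0.05 as the threshold. Levels are also given with the SD over 3 libraries, and differences as log2 fold changes ± SE. Htt itself was at 99.97 ± 6.00 CPM in control, 62.3 ± 1.51 CPM in HD-het and 20.2 ± 1.29 CPM in HD-homo cells (SD, n = 3), and counts do not show the length of its repeat. Of 18 striatal projection neuron markers, 5 exceeded 1 CPM in some library, with Foxp1 the highest at up to 179 CPM, and 6, among them Drd1, Drd2, Pdyn, Isl1 and Gad1, stood at or under 3 counts throughout. Their sum ran from 166 to 175 CPM in control, 233 to 252 CPM in HD-het and 212 to 253 CPM in HD-homo cells. These markers did not move together. Of 9 tested, 4 rose and 2 fell in HD-het cells, from Bcl11b at 1.72 to Rgs9 at -2.16 (log2). In HD-homo cells 3 rose and 1 fell (median -0.048), from Foxp2 at 2.15 to Meis2 at -1.20. The shares of all tested genes are given with the progenitor markers below. Nes, a neural progenitor gene, averaged 526 CPM in control, 839.5 CPM in HD-het and 28.4 CPM in HD-homo cells. Vim reached 5696 CPM and Col1a1, a collagen of mesenchymal cells, 7791 CPM. The progenitor markers did not move together, and Dlx2 went against Nes, at -1.80 in HD-het and 0.98 in HD-homo cells (log2, against control). Of 6 tested, 2 rose and 3 fell in HD-het cells, beside 33.8% and 31.4% of all tested genes. In HD-homo cells 2 rose and 4 fell, beside 29.6% and 28.9%. Among the replicates, control 3 was the highest control library for 81 of the 87 tested members, and HD-het 2 was the lowest HD-het library for 76. The median member lay 0.10 above the mean of its line in control 3 and at -0.078 in HD-het 2 (log2 CPM), against -0.0047 and -0.0068 for all tested genes. The part of these libraries in the comparisons was tested only by leaving each out.

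The members together were lower in HD-het cells than in either homozygous line, and most of that gap came from 2 chromosomes. Their summed level was 9629, 9512 and 10408 CPM in control, 8572, 8095 and 9000.1 CPM in HD-het and 9497, 9140.2 and 9342 CPM in HD-homo libraries. This is 0.810% to 1.04% of the counts. All 3 HD-het libraries lay below the other 6. Without the 12 members on chromosomes 10 and 15, the sums were 6499, 6428 and 7105 CPM in control, 6458, 6105 and 6732 CPM in HD-het and 6597, 6423 and 6548 CPM in HD-homo cells, and the lines overlapped. The 2 chromosomes were singled out after their values were seen. In bulk libraries less RNA per cell and fewer cells of a kind cannot be told apart. The summed level of 7 mesenchymal markers, none of them at the floor, lay between 4621 and 5853 CPM in control cells. It lay between 12791 and 14738 CPM in HD-het and between 6245 and 6817 CPM in HD-homo cells, so that it too set HD-het cells apart. Col1a1 alone averaged 2465, 7097 and 4234 CPM in the same order, and the markers did not move together. Of the 6 tested, 4 rose and 2 fell in HD-het cells, beside 33.8% and 31.4% of all tested genes. In HD-homo cells 4 rose and 1 fell, beside 29.6% and 28.9%. Col1a2 was at -4.54 in HD-het and 4.35 in HD-homo cells (log2). The part of these markers in the levels of the members was not tested.

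By complex, the ATP synthase had the largest gap in summed level. In it and in complex III all HD-het libraries lay below those of both other lines. Mean sums in control and HD-het cells were 4464 and 3616.5 CPM for the ATP synthase and 1047 and 866 CPM for complex III. They were 2246 and 2096 CPM for complex I and 1512 and 1384 CPM for complex IV. The ATP synthase genes summed to 4401, 4334 and 4656 CPM in control cells, 3589.9, 3419.8 and 3839.8 CPM in HD-het cells and 4217, 3996 and 4111 CPM in HD-homo cells, so that no line overlapped another. A single gene, Atp5b, made up a large part of this, and without it the sums were 2448, 2416 and 2626 CPM, 2218, 2123 and 2368 CPM and 2532, 2428 and 2492 CPM in the same order, with HD-het still below the others. Complex III summed to 1024, 1013 and 1105 CPM in control, 865, 819 and 913 CPM in HD-het and 1032, 960.2 and 1016 CPM in HD-homo cells, again lowest in HD-het. Complex II held 429.8, 423 and 465 CPM, 465, 449 and 472 CPM and 432, 424 and 431 CPM, and its control and HD-het libraries overlapped. For complex I the sums ran from 1972 to 2411 CPM and for complex IV from 1309 to 1626 CPM, with HD-het and HD-homo libraries overlapping in both. In complex IV all control libraries lay above those of both HD lines. Per kilobase of transcript, the median tested gene of the control line stood at 53.1 CPM for complex I, 65.5 for complex II, 123 for complex III, 169.9 for complex IV, 139.7 for the ATP synthase and 10.5 for the complex I assembly factors. Each length is that of a single annotated transcript per gene, which need not be the one expressed here.

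**Figure D1:**
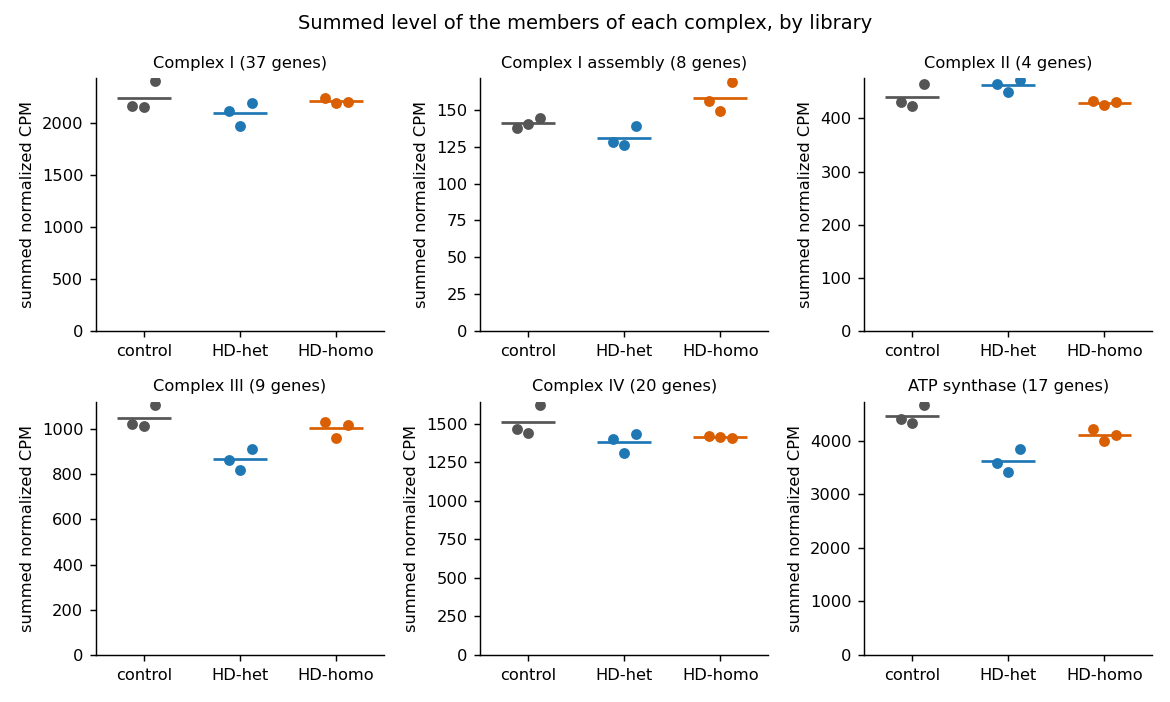
Summed normalized CPM (vertical axes from 0) of the members of each complex in each of the 9 libraries (points) with the mean of each line (bars). ATP synthase and complex III genes are lowest in all 3 HD-het libraries, whereas complex II spans only 0.0423% to 0.0472% of the counts over all libraries.

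In HD-het cells, 34 of the 87 tested members fell and 15 rose against control cells. This is 39.1% lower and 17.2% higher, beside 31.4% lower and 33.8% higher among all tested genes. In HD-homo cells 22 members rose and 18 fell (25.3% and 20.7%), beside 29.6% and 28.9% of all genes. Between the HD lines, 34 members were higher in HD-homo cells and 20 were lower (39.1% and 23.0%), beside 36.0% and 35.6%. The 3 comparisons share libraries and are not independent of each other. Changes of members were small, with a median size of 0.23 in HD-het and 0.18 in HD-homo cells (log2), against 0.40 and 0.32 for all tested genes. Fold changes of all tested genes ran from -13.8 to 13.5 in HD-het cells, and the members were not compared with genes of like level. The signed median was -0.068 and 0.0077 for the members and 0.025 and 0.0077 for all tested genes. Without control 3, 30 members fell and 19 rose in HD-het cells, and without HD-het 2, 32 fell and 17 rose. Without control 1, control 2 or HD-het 1, the count of members that rose in HD-het cells was 9, 8 and 7 in place of 15, and without control 2 the count that rose in HD-homo cells was 14 in place of 22.

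The lines were also compared by libraries that do not overlap. The 3 HD-het libraries lay below all 6 others for 26 members (29.9%, beside 23.7% of all tested genes) and above them for 8 (9.20%, beside 25.0%). The HD-homo libraries lay above all others for 12 members (13.8%, beside 20.1%) and below for 14 (16.1%, beside 20.6%). The control libraries lay above both HD lines for 16 (18.4%, beside 14.9%) and below both for 10 (11.5%, beside 16.5%). The share furthest from its background was that of members highest in HD-het cells, among them Atp5s, Cox5a, Ndufa13, Ndufaf3, Ndufb11, Ndufv3 and Sdha.

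**Figure D2:**
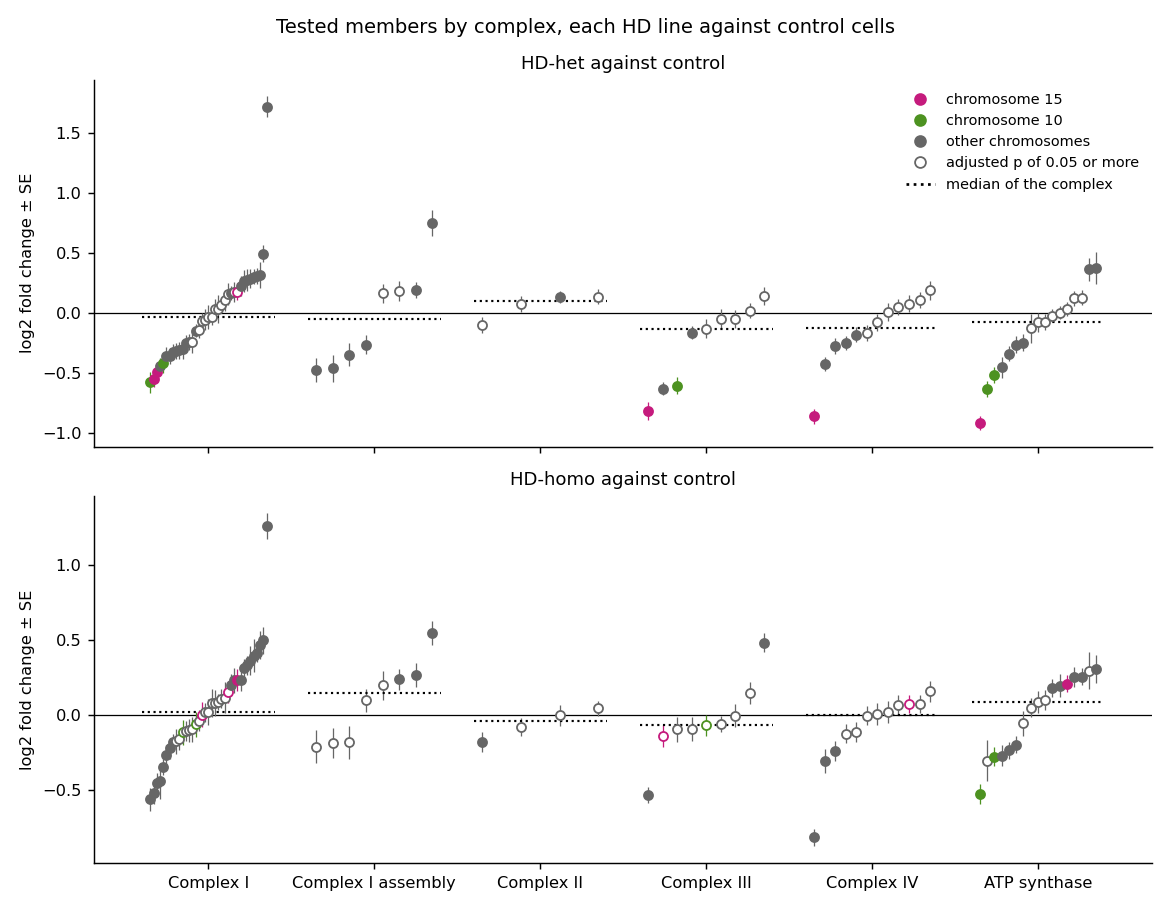
Log2 fold change ± SE (vertical axes) of each tested member, sorted within its complex, in HD-het (upper panel) and HD-homo cells (lower panel) against control cells, with filled points for an adjusted p under 0.05 and dotted lines for the median of each complex. In HD-het cells the lowest points of complexes III and IV and of the ATP synthase are members on chromosome 15, at -0.81, -0.86 and -0.91; Ndufv3 of complex I is the highest point in both panels.

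The 7 nuclear core subunits of complex I, which hold the flavin and the iron-sulfur clusters, all differed between HD-het and control cells. Here 5 fell and 2 rose, with a median of -0.24 (log2). In HD-homo cells 3 fell, 1 rose and 3 did not pass, with a median of -0.12. Of all tested genes, 31.4% were lower and 33.8% higher in HD-het cells, and 28.9% and 29.6% in HD-homo cells. Ndufs7, which hands electrons to ubiquinone, was at 51.8, 49.6 and 55.2 CPM in control cells, 37.7, 35.6 and 44.3 CPM in HD-het cells and 50.9, 46.3 and 47.5 CPM in HD-homo cells. The HD-het libraries lay below all others, and the fold change against control was -0.41 ± 0.085 (log2, edgeR adjusted p = 0.00121). Ndufv2, an iron-sulfur subunit of the NADH-oxidizing arm, stepped down through the lines at 117, 113 and 132 CPM in control cells, 99.6, 94.1 and 97.3 CPM in HD-het cells and 83.6, 79.5 and 89.0 CPM in HD-homo cells. No line overlapped another. It fell by 0.31 ± 0.068 (log2, edgeR adjusted p = 0.00183) in HD-het and by 0.52 ± 0.069 (log2, edgeR adjusted p = 5.8e-05) in HD-homo cells. Ndufs3, of the peripheral arm, was higher in both HD lines at 59.1, 58.2 and 62.1 CPM in control cells, 73.5, 68.9 and 79.7 CPM in HD-het cells and 82.7, 77.1 and 79.6 CPM in HD-homo cells. The fold changes were 0.31 ± 0.065 (log2, edgeR adjusted p = 0.00143) in HD-het and 0.42 ± 0.065 (log2, edgeR adjusted p = 0.000211) in HD-homo cells. Of its 50-base words, 35.8% also occur in other genes.

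Ndufs1, the largest subunit of the arm that takes in NADH, was at -0.14 ± 0.055 (log2, edgeR adjusted p = 0.0367) in HD-het and -0.35 ± 0.055 (log2, edgeR adjusted p = 0.000253) in HD-homo cells. Ndufs1 was at an edgeR adjusted p of 0.0656, 0.0605, 0.12 and 0.15 in HD-het cells without control replicate 1, control replicate 2, control replicate 3 or HD-het replicate 1, within 0.0212 to 0.15 over all alternatives. Ndufv1, which binds the flavin that oxidizes NADH, fell in HD-het cells by 0.24 ± 0.063 (log2, edgeR adjusted p = 0.00623), and Ndufs8 fell by 0.31 ± 0.071 (log2, edgeR adjusted p = 0.00259). Both lie on chromosome 19, where the median of the other tested genes was -0.32.

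Supernumerary subunits surround the core and are needed for its assembly and stability. Of the 30 genes counted as such, 8 rose, 9 fell and 13 did not pass in HD-het cells (median 0.0025). In HD-homo cells 11 rose, 5 fell and 14 did not pass (median 0.082), and the pseudogene Ndufb4c was among those that rose. The shares of all tested genes were 33.8% higher and 31.4% lower in HD-het cells, and 29.6% and 28.9% in HD-homo cells. Ndufv3, an accessory subunit of the NADH-oxidizing arm, moved furthest of all members. It was at 7.19, 8.15 and 7.27 CPM in control cells, 26.3, 24.4 and 23.6 CPM in HD-het cells and 17.5, 19.4 and 17.2 CPM in HD-homo cells. These were 3 groups that did not overlap. HD-het cells had 3.28 times the control level, 1.71 ± 0.088 (log2, edgeR adjusted p = 4.0e-08). HD-homo cells had 2.40 times that level, 1.26 ± 0.088 (log2, edgeR adjusted p = 3.2e-07). It was lower in HD-homo than HD-het cells by 0.45 ± 0.082 (log2, edgeR adjusted p = 0.000408). The gene (chr17:31520115-31531331 on GRCm38) shares no 50-base word with another gene, and the median of the other genes on chromosome 17 was -0.12 in HD-het and -0.22 in HD-homo cells. Without Ndufv3, members lay between -0.91 and 0.75 in HD-het cells.

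Ndufa13 was the next highest subunit of complex I in HD-het cells, at 49.0, 46.7 and 55.3 CPM in control cells, 73.5, 66.3 and 73.0 CPM in HD-het cells and 55.3, 59.1 and 58.6 CPM in HD-homo cells. The change was 0.50 ± 0.074 (log2, edgeR adjusted p = 0.000121). The lowest was Ndufa12, at 104, 102 and 112 CPM in control cells, 69.1, 63.0 and 80.9 CPM in HD-het cells and 105, 98.3 and 102 CPM in HD-homo cells. Next came Ndufb9, of the membrane arm, at 128, 124 and 143 CPM in control cells, 92.9, 82.6 and 95.6 CPM in HD-het cells and 151, 139 and 149.5 CPM in HD-homo cells. Both were lowest in all 3 HD-het libraries, and their control and HD-homo libraries overlapped. The changes in HD-het cells were -0.58 ± 0.084 (log2, edgeR adjusted p = 0.000105) and -0.54 ± 0.074 (log2, edgeR adjusted p = 6.6e-05). In HD-homo cells the lowest was Ndufb10, at -0.56 ± 0.077 (log2, edgeR adjusted p = 7.8e-05), followed by Ndufv2. The highest after Ndufv3 was Ndufa8, at 0.50 ± 0.091 (log2, edgeR adjusted p = 0.000681). Between the HD lines Ndufb9 differed by 0.70 ± 0.074 (log2, edgeR adjusted p = 6.5e-06) and Ndufs4, a subunit mutated in Leigh syndrome, by 0.68 ± 0.065 (log2, edgeR adjusted p = 2.6e-06), both higher in HD-homo cells. Ndufs4 was at 40.9, 39.3 and 44.5 CPM in control cells, 34.1, 32.1 and 31.4 CPM in HD-het cells and 51.5, 52.9 and 52.4 CPM in HD-homo cells. HD-het was its lowest line and HD-homo its highest. Ndufa3 was lowest in HD-homo cells, -0.47 ± 0.12 (log2, edgeR adjusted p = 0.00381) against HD-het.

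The 8 Ndufaf genes encode factors that build complex I and are not part of the finished enzyme. In HD-het cells 2 rose and 4 fell, in HD-homo cells 3 rose and 0 fell, and between the HD lines 5 were higher and 1 lower in HD-homo cells. The shares of all tested genes were 33.8% higher and 31.4% lower in HD-het and 29.6% higher and 28.9% lower in HD-homo cells against control, and 36.0% higher and 35.6% lower between the HD lines, so that a few calls each way among 8 genes are near the background. Ndufaf3 stood apart, at 5.97, 5.86 and 7.40 CPM in control cells, 10.7, 10.7 and 10.9 CPM in HD-het cells and 5.64, 5.59 and 5.37 CPM in HD-homo cells. HD-het cells had 1.68 times the control level, 0.75 ± 0.11 (log2, edgeR adjusted p = 8.7e-05). It did not pass in HD-homo cells at -0.21 ± 0.11 (log2, edgeR adjusted p = 0.122) and differed between the HD lines by -0.96 ± 0.11 (log2, edgeR adjusted p = 9.4e-06). Ndufaf4, which works with Ndufaf3, was at 44.2, 46.2 and 44.5 CPM in control cells, 31.9, 33.9 and 40.4 CPM in HD-het cells and 49.3, 47.8 and 57.7 CPM in HD-homo cells. HD-het was lowest, and the gene was higher in HD-homo than HD-het cells by 0.54 ± 0.10 (log2, edgeR adjusted p = 0.000368). Ndufaf8 and Ndufaf6 were the lowest in HD-het cells at -0.47 ± 0.10 (log2, edgeR adjusted p = 0.00172) and -0.46 ± 0.11 (log2, edgeR adjusted p = 0.00344). Ndufaf8 did not pass in HD-homo cells at -0.19 ± 0.10 (log2, edgeR adjusted p = 0.137). Ndufaf5, which hydroxylates a core subunit during assembly, was highest in HD-homo cells at 11.4, 12.3 and 12.1 CPM in control cells, 13.5, 13.0 and 14.2 CPM in HD-het cells and 16.6, 17.0 and 18.8 CPM in HD-homo cells. The change was 0.55 ± 0.08 (log2, edgeR adjusted p = 0.000134). Ndufaf2 was also higher in HD-homo cells, by 0.27 ± 0.079 (log2, edgeR adjusted p = 0.0133) over control and 0.53 ± 0.079 (log2, edgeR adjusted p = 0.000103) over HD-het cells. Ndufaf7 was at 0.19 ± 0.068 (log2, edgeR adjusted p = 0.0256) in HD-het cells. Ndufaf2 was at an edgeR adjusted p of 0.062 and 0.0515 in HD-homo cells without control replicate 2 or HD-homo replicate 3, within 0.00382 to 0.062 over all alternatives. Ndufaf7 was at an edgeR adjusted p of 0.0719, 0.0743, 0.0536 and 0.0908 in HD-het cells without control replicate 1, control replicate 2, control replicate 3 or HD-het replicate 1, within 0.0216 to 0.0908 over all alternatives.

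**Figure D3:**
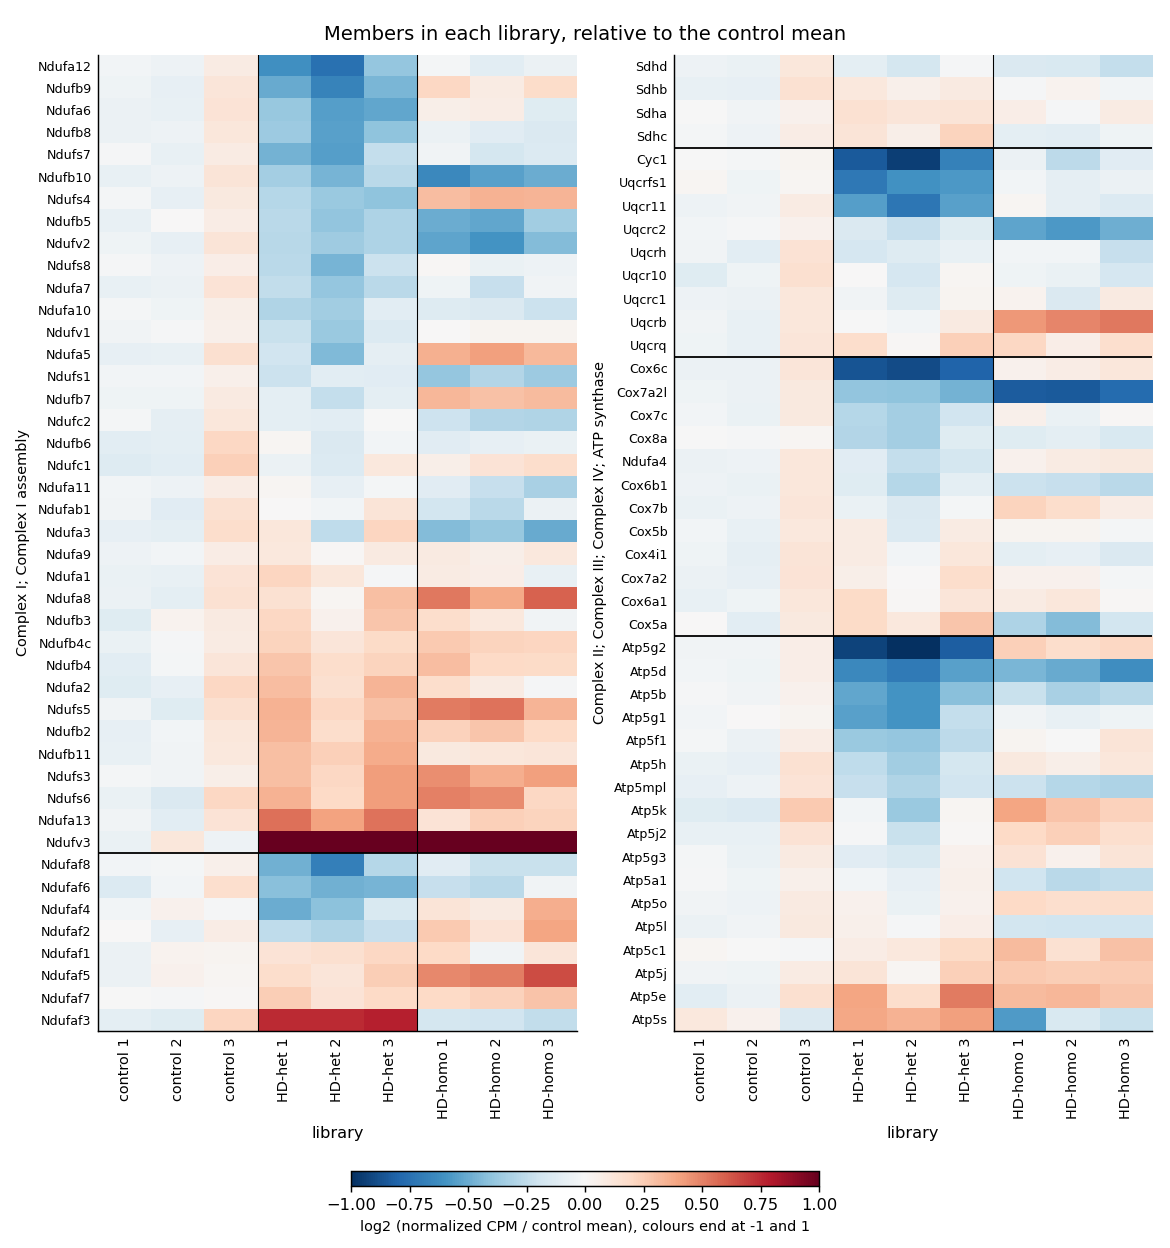
Log2 ratio of normalized CPM to the control mean (colour, ending at -1 and 1) for the tested members but 1 (rows, by complex and sorted by the change in HD-het cells) in the 9 libraries (columns). The HD-het columns are darkest blue for Cyc1, Uqcrfs1, Uqcr11, Cox6c, Atp5g2 and Atp5d, and most of these return to near the control level in the HD-homo columns, Atp5d excepted (-0.53).

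In complex II, succinate dehydrogenase, 1 of 4 subunits rose in HD-het cells and 1 fell in HD-homo cells. None moved beyond the -0.22 of Sdhc between the HD lines. Of all tested genes, 33.8% were higher in HD-het cells and 28.9% lower in HD-homo cells. Sdha, the flavoprotein that oxidizes succinate, was at 183, 179 and 189 CPM in control cells, 204, 199.7 and 200.5 CPM in HD-het cells and 192, 183 and 195 CPM in HD-homo cells. All 3 HD-het libraries were above control, with a change of 0.13 ± 0.05 (log2, edgeR adjusted p = 0.0372). Sdhb, the iron-sulfur subunit, was at 73.1, 72.9 and 85.8 CPM in control cells, 82.7, 79.8 and 81.9 CPM in HD-het cells and 76.4, 79.1 and 75.7 CPM in HD-homo cells. Its control and HD-het libraries overlapped. Its change in HD-het cells was 0.078 ± 0.068 (log2, edgeR adjusted p = 0.334). The membrane anchor Sdhc was at 75.3, 73.7 and 80.3 CPM in control cells, 83.4, 79.4 and 89.3 CPM in HD-het cells and 71.4, 71.2 and 74.1 CPM in HD-homo cells. The change was 0.14 ± 0.061 (log2, edgeR adjusted p = 0.0672) in HD-het and -0.082 ± 0.061 (log2, edgeR adjusted p = 0.27) in HD-homo cells. It was lower in HD-homo than HD-het cells by 0.22 ± 0.061 (log2, edgeR adjusted p = 0.00697). The other anchor, Sdhd, was at 98.2, 96.8 and 109.8 CPM in control cells, 94.6, 90.0 and 101 CPM in HD-het cells and 91.7, 91.4 and 86.2 CPM in HD-homo cells. It was at -0.10 ± 0.066 (log2, edgeR adjusted p = 0.227) in HD-het cells and lower than control in all 3 HD-homo libraries, at -0.18 ± 0.066 (log2, edgeR adjusted p = 0.0379). The calls of Sdha and Sdhd against control lay near the threshold, and each was lost when any of several libraries was left out. For Sdhd this included HD-het replicate 1, which is outside the comparison, and the fold change then stayed at -0.18 (log2). Sdha was at an edgeR adjusted p of 0.106, 0.138, 0.102, 0.0612 and 0.0563 in HD-het cells without control replicate 1, control replicate 2, HD-het replicate 1, HD-het replicate 2 or HD-het replicate 3, within 0.0213 to 0.138 over all alternatives. Sdhd was at an edgeR adjusted p of 0.0535, 0.155, 0.0536, 0.055 and 0.105 in HD-homo cells without control replicate 1, control replicate 3, HD-het replicate 1, HD-homo replicate 1 or HD-homo replicate 3, within 0.0311 to 0.155 over all alternatives. Sdhb was at an edgeR adjusted p of 0.0376 in HD-het cells without control replicate 3, within 0.0376 to 0.714 over all alternatives. Sdhc was at an edgeR adjusted p of 0.048 and 0.0367 in HD-het cells without control replicate 3 or HD-het replicate 2, within 0.025 to 0.218 over all alternatives.

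In complex III, 4 of 9 subunits fell and 0 rose in HD-het cells (median -0.13). Of all tested genes, 31.4% were lower and 33.8% higher. Both nuclear redox subunits of complex III were among those that fell. Cyc1, cytochrome c1, which hands electrons to cytochrome c, was at 219.7, 218 and 225 CPM in control cells, 123, 115 and 138 CPM in HD-het cells and 212, 184 and 205 CPM in HD-homo cells. All HD-het libraries lay far below the other 6, and the change was -0.81 ± 0.075 (log2, edgeR adjusted p = 3.2e-06), a level 1.76-fold lower. Uqcrfs1, the Rieske iron-sulfur protein, which takes the first electron from ubiquinol, was at 125, 119.6 and 125 CPM in control cells, 75.0, 80.9 and 82.6 CPM in HD-het cells and 121, 115 and 118 CPM in HD-homo cells. The HD-het libraries were again lowest, and the change was -0.63 ± 0.055 (log2, edgeR adjusted p = 2.2e-06), or 1.55-fold lower. Both were higher in HD-homo than HD-het cells, by 0.67 ± 0.075 (log2, edgeR adjusted p = 9.2e-06) and 0.57 ± 0.055 (log2, edgeR adjusted p = 3.0e-06). Cyc1 in HD-homo cells was at -0.14 ± 0.074 (log2, edgeR adjusted p = 0.125) against control. Uqcr11, a small subunit, followed the same order at 69.9, 70.4 and 76.7 CPM in control cells, 49.4, 43.9 and 49.5 CPM in HD-het cells and 73.2, 68.1 and 65.6 CPM in HD-homo cells. The change in HD-het cells was -0.60 ± 0.07 (log2, edgeR adjusted p = 2.0e-05). Cyc1 lies at chr15:76343523-76346260, Uqcrfs1 at chr13:30540308-30545362 and Uqcr11 at chr10:80402997-80406830 (GRCm38), on 3 chromosomes, and Cyc1 and Uqcrfs1 share no 50-base word with another gene.

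The HD-homo line differed from control at other subunits of complex III. Uqcrc2, a core protein, was at 135, 136 and 141 CPM in control cells, 124, 117 and 127 CPM in HD-het cells and 95.3, 92.1 and 98.0 CPM in HD-homo cells. The HD-homo libraries were lowest, with -0.53 ± 0.054 (log2, edgeR adjusted p = 7.1e-06) against control and -0.37 ± 0.054 (log2, edgeR adjusted p = 8.4e-05) against HD-het cells. Uqcrb, which binds ubiquinone, was highest there at 61.7, 59.9 and 68.1 CPM in control cells, 63.0, 62.1 and 67.4 CPM in HD-het cells and 85.0, 88.8 and 91.1 CPM in HD-homo cells. The change was 0.48 ± 0.064 (log2, edgeR adjusted p = 6.4e-05). Its control and HD-het libraries overlapped. Of its 50-base words 43.2% occur in other genes. Uqcrq was the highest in HD-het cells without passing the test, at 0.14 ± 0.075 (log2, edgeR adjusted p = 0.117), and at 0.15 ± 0.075 (log2, edgeR adjusted p = 0.117) in HD-homo cells. Uqcrq was at an edgeR adjusted p of 0.0476 and 0.037 in HD-het cells without control replicate 3 or HD-het replicate 2, within 0.0347 to 0.33 over all alternatives. Uqcrq was at an edgeR adjusted p of 0.0493 in HD-homo cells without control replicate 3, within 0.032 to 0.328 over all alternatives. Between the HD lines 4 of 9 subunits were higher in HD-homo cells and 1 was lower, beside 36.0% and 35.6% of all tested genes.

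Of the 20 complex IV genes, 12 passed the filter, and these were the isoforms found in most tissues. In HD-het cells 5 fell and 0 rose, and in HD-homo cells 3 fell and 0 rose. Of all tested genes, 31.4% were lower and 33.8% higher in HD-het cells, and 28.9% and 29.6% in HD-homo cells. Cox6c, a small membrane subunit (chr15:35925886-35938246 on GRCm38), was at 165, 165 and 187 CPM in control cells, 94.5, 92.4 and 98.5 CPM in HD-het cells and 177, 181 and 186 CPM in HD-homo cells. The HD-het libraries stood well below the others at -0.86 ± 0.063 (log2, edgeR adjusted p = 5.9e-07), which is 1.81-fold lower. HD-homo cells were above HD-het cells by 0.93 ± 0.063 (log2, edgeR adjusted p = 1.6e-07). Cox7a2l, which links complexes III and IV into supercomplexes, stepped down from control to HD-het to HD-homo at 119, 117 and 131 CPM in control cells, 92.6, 92.1 and 88.1 CPM in HD-het cells and 68.5, 68.1 and 71.5 CPM in HD-homo cells, with no overlap. It changed by -0.43 ± 0.058 (log2, edgeR adjusted p = 6.4e-05) in HD-het and -0.82 ± 0.058 (log2, edgeR adjusted p = 4.0e-07) in HD-homo cells, where it was 1.76-fold lower. The difference between them was -0.39 ± 0.058 (log2, edgeR adjusted p = 0.0001). Cox5a was highest in HD-het and lowest in HD-homo cells at 138, 129 and 148 CPM in control cells, 157, 149 and 167 CPM in HD-het cells and 112, 102 and 122 CPM in HD-homo cells. It fell in HD-homo cells by 0.31 ± 0.078 (log2, edgeR adjusted p = 0.00601) against control and by 0.50 ± 0.078 (log2, edgeR adjusted p = 0.000154) against HD-het cells. It was at 0.19 ± 0.078 (log2, edgeR adjusted p = 0.0523) in HD-het cells against control. Cox5a was at an edgeR adjusted p of 0.0346, 0.0408, 0.0312 and 0.0341 in HD-het cells without control replicate 3, HD-het replicate 2, HD-homo replicate 2 or HD-homo replicate 3, within 0.00327 to 0.199 over all alternatives.

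The isoform pairs of complex IV separated by level. The 8 members that did not pass the filter were Cox4i2, Cox6a2, Cox6b2, Cox7a1, Cox7b2, Cox8b, Cox8c and Ndufa4l2, isoforms of lung, muscle, testis or hypoxic cells. Their highest value in any library was 0.564 CPM, for Cox6a2 in HD-het 1, and Cox8b and Cox8c had 0 counts in all 9 libraries, which allows up to 0.101 CPM. Cox4i1, which replaces Cox4i2 in most tissues, was at 284, 275 and 320.2 CPM in control cells, 310.3, 287 and 317 CPM in HD-het cells and 273, 276 and 265 CPM in HD-homo cells. Cox6a1 was at 105, Cox6b1 at 96.2, Cox7a2 at 77.1, Cox7b at 75.5, Cox8a at 134 and Ndufa4 at 125 mean CPM in control cells. Cox8a fell in HD-het cells by 0.25 ± 0.062 (log2, edgeR adjusted p = 0.00441) and Cox7c, which has no such partner here, by 0.27 ± 0.064 (log2, edgeR adjusted p = 0.00298). Cox7c was higher in HD-homo than HD-het cells by 0.27 ± 0.064 (log2, edgeR adjusted p = 0.00275). For Cox7c, 53.0% of 50-base words occur in other genes. Ndufa4, named for complex I but a subunit of complex IV, was at -0.18 ± 0.062 (log2, edgeR adjusted p = 0.0251) in HD-het cells. Cox6b1 fell in HD-homo cells by 0.24 ± 0.068 (log2, edgeR adjusted p = 0.0105). The highest in HD-homo cells, Cox7b, was at 0.16 ± 0.068 (log2, edgeR adjusted p = 0.0671). Cox6a1 was the next highest after Cox5a in HD-het cells, at 0.11 ± 0.068 (log2, edgeR adjusted p = 0.181). Ndufa4 came after Cox7b in HD-homo cells, at 0.072 ± 0.062 (log2, edgeR adjusted p = 0.334). Ndufa4 was at an edgeR adjusted p of 0.11, 0.0948 and 0.0514 in HD-het cells without control replicate 3, HD-het replicate 2 or HD-het replicate 3, within 0.0167 to 0.11 over all alternatives. Cox7b was at an edgeR adjusted p of 0.0226 and 0.0413 in HD-homo cells without control replicate 3 or HD-homo replicate 3, within 0.0226 to 0.227 over all alternatives.

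Of the 17 ATP synthase genes, 7 fell and 2 rose in HD-het cells (median -0.076) and 5 fell and 6 rose in HD-homo cells (median 0.085). In HD-homo against HD-het cells, 9 were higher and 3 lower. The shares of all tested genes were 31.4% lower and 33.8% higher in HD-het cells, and 28.9% and 29.6% in HD-homo cells. Between the HD lines they were 36.0% higher and 35.6% lower. In the F1 head, Atp5b, the catalytic beta subunit and, at 1027 CPM per kilobase in control cells, the member with the highest level, was at 1953, 1918 and 2031 CPM in control cells, 1371, 1296 and 1472 CPM in HD-het cells and 1685, 1568 and 1619 CPM in HD-homo cells. No line overlapped another, with -0.51 ± 0.065 (log2, edgeR adjusted p = 3.9e-05) in HD-het and -0.28 ± 0.065 (log2, edgeR adjusted p = 0.00363) in HD-homo cells. Atp5d, the delta subunit of the central stalk, was lower in both HD lines at 169, 168 and 180.3 CPM in control cells, 110.4, 106 and 118 CPM in HD-het cells and 125, 122 and 112 CPM in HD-homo cells. The changes were -0.63 ± 0.064 (log2, edgeR adjusted p = 7.2e-06) and -0.53 ± 0.064 (log2, edgeR adjusted p = 3.3e-05). The alpha subunit Atp5a1, which pairs with beta in the head, was at 662, 648 and 692 CPM in control cells, 654, 630.0 and 690.1 CPM in HD-het cells and 583, 554 and 563 CPM in HD-homo cells. Its control and HD-het libraries overlapped, and it fell in HD-homo cells by 0.24 ± 0.057 (log2, edgeR adjusted p = 0.00408). The epsilon subunit Atp5e rose in HD-het cells by 0.36 ± 0.095 (log2, edgeR adjusted p = 0.00552) and was at 0.30 ± 0.094 (log2, edgeR adjusted p = 0.0166) in HD-homo cells. Atp5e was at an edgeR adjusted p of 0.0748 and 0.0643 in HD-homo cells without control replicate 1 or control replicate 2, within 0.00728 to 0.0748 over all alternatives.

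The c ring, through which protons pass, is encoded by 3 genes whose mature proteins are the same. All 3 were lower on average in HD-het than in either other line, and differences between the genes were not tested. Atp5g2 was at 209.9, 210.0 and 225 CPM in control cells, 113, 108 and 122 CPM in HD-het cells and 254, 243 and 249 CPM in HD-homo cells. It was 1.88-fold lower in HD-het cells, -0.91 ± 0.059 (log2, edgeR adjusted p = 2.5e-07), the largest fall of any member. It was higher than control in HD-homo cells by 0.21 ± 0.059 (log2, edgeR adjusted p = 0.00996) and 2.18 times as high in HD-homo as in HD-het cells, 1.12 ± 0.06 (log2, edgeR adjusted p = 2.4e-08). Atp5g1 was at 85.9, 87.9 and 89.4 CPM in control cells, 60.1, 58.0 and 74.5 CPM in HD-het cells and 85.4, 83.3 and 84.9 CPM in HD-homo cells. It was lowest in HD-het cells at -0.45 ± 0.084 (log2, edgeR adjusted p = 0.000623). Atp5g3 was at 278, 270.4 and 300.1 CPM in control cells, 262, 255 and 291 CPM in HD-het cells and 312, 290.5 and 308 CPM in HD-homo cells. Its libraries overlapped, with -0.072 ± 0.066 (log2, edgeR adjusted p = 0.357) in HD-het cells. Mean levels in control cells were 283 CPM for Atp5g3, 215 CPM for Atp5g2 and 87.7 CPM for Atp5g1. Per kilobase, control cells held 391 CPM of Atp5g3, 294 of Atp5g2 and 18.6 of Atp5g1, for transcripts of 723, 731 and 4715 bases. HD-het cells held 372, 156 and 13.6. The gap of Atp5g1 per kilobase depends on the transcript chosen for its length, and which transcript these cells express was not tested. Of the 50-base words of Atp5g2 (chr15:102662864-102672352 on GRCm38), 87.4% also occur in Gm10175 or other genes, so its reads may be split.

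Atp5s, named for the enzyme but not a structural subunit of it, was low at 4.36, 4.16 and 3.65 CPM in control cells, 5.30, 5.15 and 5.36 CPM in HD-het cells and 2.73, 3.65 and 3.46 CPM in HD-homo cells. The change was 0.38 ± 0.13 (log2, edgeR adjusted p = 0.0274) in HD-het cells, -0.30 ± 0.14 (log2, edgeR adjusted p = 0.0779) in HD-homo cells and -0.68 ± 0.13 (log2, edgeR adjusted p = 0.000788) between them. Atp5s was at an edgeR adjusted p of 0.0595, 0.0997, 0.069, 0.0531 and 0.0587 in HD-het cells without control replicate 2, control replicate 3, HD-het replicate 1, HD-het replicate 2 or HD-het replicate 3, within 0.0106 to 0.0997 over all alternatives. Atp5s was at an edgeR adjusted p of 0.045 in HD-homo cells without HD-homo replicate 2, within 0.045 to 0.244 over all alternatives. In the membrane part, Atp5k was higher in HD-homo than HD-het cells by 0.42 ± 0.12 (log2, edgeR adjusted p = 0.00947) and Atp5l was lower by 0.23 ± 0.057 (log2, edgeR adjusted p = 0.00339). Against control, Atp5k was at 0.29 ± 0.12 (log2, edgeR adjusted p = 0.0595) in HD-homo cells. Atp5k was at an edgeR adjusted p of 0.00911 and 0.0376 in HD-homo cells without control replicate 3 or HD-het replicate 2, within 0.00911 to 0.201 over all alternatives. Atp5l shares 68.5% of its 50-base words with other genes.

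**Figure D4:**
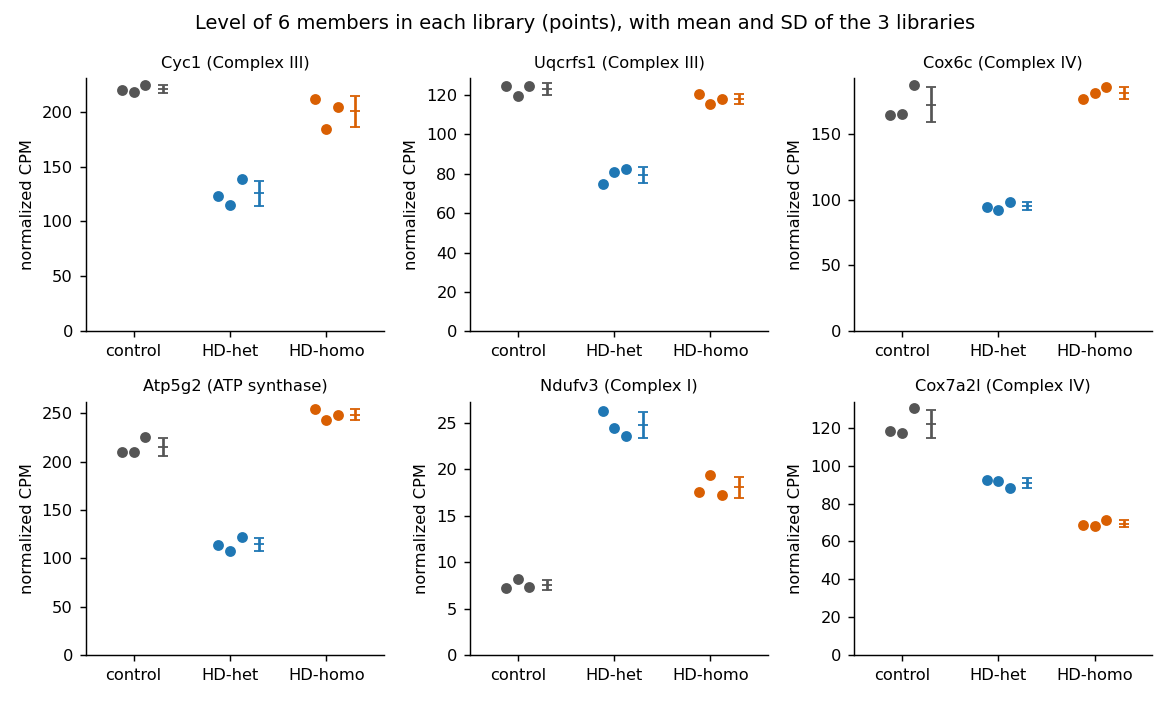
Normalized CPM (vertical axes from 0) of Cyc1, Uqcrfs1, Cox6c, Atp5g2, Ndufv3 and Cox7a2l in each library (points), with the mean and SD of the 3 libraries of each line. HD-het is the lowest line for the first 4 and the highest for Ndufv3, while Cox7a2l goes from 122 ± 7.32 CPM in control to 90.9 ± 2.50 CPM in HD-het and 69.4 ± 1.86 CPM in HD-homo cells.

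Of the 10 members that fell furthest in HD-het cells, all but Uqcrfs1 lie on 2 chromosomes, which the choice of genes did not use. Chromosome 15 holds Cyc1, Cox6c, Atp5g2, Ndufb9, Ndufa6 and Ndufb4c, and chromosome 10 holds Atp5b, Atp5d, Uqcr11, Ndufa12 and Ndufs7 among the tested members. Of these 11, 10 fell in HD-het cells, beside 31.4% of all tested genes, and their median was -0.58. The exception was Ndufb4c, at 0.18 ± 0.074 (log2, edgeR adjusted p = 0.0519), a processed pseudogene by GENCODE. All of its 50-base words occur in Ndufb4 or other genes. Ndufb4c was at an edgeR adjusted p of 0.0399 in HD-het cells without control replicate 3, within 0.0399 to 0.182 over all alternatives. Ndufa6, an accessory subunit of complex I, was at 46.2, 45.7 and 53.0 CPM in control cells, 37.0, 33.0 and 33.5 CPM in HD-het cells and 50.2, 50.8 and 44.3 CPM in HD-homo cells. The change was -0.49 ± 0.083 (log2, edgeR adjusted p = 0.000352). The other genes of these chromosomes were low too. The median of 552 other tested genes on chromosome 15 was -0.54 in HD-het cells, with 79.2% of them below 0, and on chromosome 10 it was -0.31 over 640 genes. Chromosome 19 was as low as chromosome 10, with a median of -0.32 over 470 genes, and its 4 tested members, Ndufv1, Ndufs8, Ndufb8 and Cox8a, all fell (median -0.28). They are counted below with the members away from chromosomes 10 and 15. In windows of 20 Mb the median stayed between -0.61 and -0.49 along chromosome 15 and between -0.35 and -0.14 along chromosome 10. Relative to the control mean, the median of the other genes of chromosome 15 was -0.53, -0.53 and -0.52 across HD-het replicates and 0.034, 0.012 and 0.011 across those of HD-homo cells (log2). In HD-homo cells chromosome 15 as a whole stood at 0.028, and its 6 members at a median of 0.11.

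Set against the other genes of their own chromosomes, the values of the leading members shrank to different degrees. In HD-het cells Atp5g2 was at -0.37, Cox6c at -0.31 and Cyc1 at -0.27 relative to the median of chromosome 15, while Ndufb9 was at 0.0015 and Ndufa6 at 0.06. On chromosome 10, Atp5d was at -0.32, Uqcr11 at -0.30, Ndufa12 at -0.27, Atp5b at -0.21 and Ndufs7 at -0.11 relative to the chromosome. Uqcrfs1, on chromosome 13, kept -0.56 of its -0.63. In HD-homo cells Cox7a2l on chromosome 17 was at -0.60 and Uqcrc2 on chromosome 7 at -0.36 relative to their chromosomes. Over all 87 members the SD of the log2 fold changes went from 0.37 to 0.31 in HD-het cells and from 0.30 to 0.25 in HD-homo cells when the chromosome median was taken off. Away from chromosomes 10 and 15, 24 of 76 members fell and 15 rose in HD-het cells (31.6% and 19.7%), beside 28.6% and 35.6% of all tested genes there. In HD-homo cells 16 fell and 20 rose (21.1% and 26.3%), beside 28.8% and 30.1%. What moved the chromosomes was not tested.

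**Figure D5:**
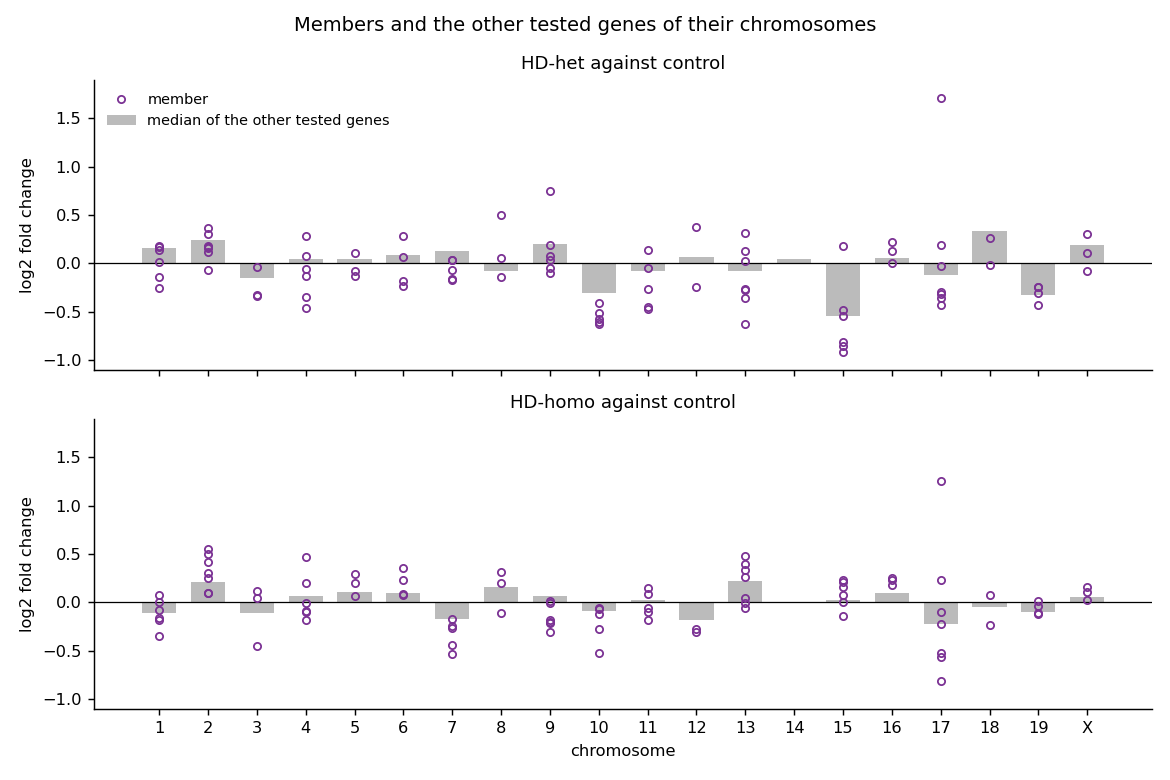
Median log2 fold change of the other tested genes of each chromosome (grey bars) and the log2 fold change of each tested member (circles) in HD-het (upper panel) and HD-homo cells (lower panel) against control cells. Chromosome 15 has the lowest bar in HD-het cells, at -0.54, with 5 of its 6 members below it or near it, and a bar near 0 in HD-homo cells.

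Some members named above share sequence or position with other genes, and their counts are less certain for it. The kit keeps the strand, but whether the counting used it is not given in the sources used here. In GENCODE, Ndufs1 overlaps Eef1b2 and Ino80dos, Ndufs3 overlaps Kbtbd4 and Ndufa13 overlaps Tssk6 and Yjefn3. Ndufa3 overlaps Tfpt, Ndufaf2 overlaps Smim15, Ndufaf3 overlaps Impdh2 and Uqcrc2 overlaps Pdzd9. Cox6c overlaps Vps13b, Atp5a1 overlaps Haus1, Atp5d overlaps Cbarp and Ndufb4c lies in Mroh5. Of the 50-base words of Ndufa12 and Ndufb9, 26.2% and 23.4% occur in other genes. The share was 19.8% for Cox7a2l, 13.9% for Cox6c, 13.5% for Ndufb8, 12.3% for Cox6a1, 10.9% for Uqcr11 and 10.6% for Atp5g1.

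The promoters of the members were read for what they share. RefSeq windows of 250 bases before to 50 after the start (GRCm38.p6) were used for 74 members. Windows of the chromosome that holds Ndufa2 and Atp5a1 were left out, both for the members and for all promoters. In the remaining windows 4 motifs of factors known to act on respiratory genes were searched on both strands. The NRF1 motif GCGCATGC (GCATGCGC on the other strand, so that 10 bases can hold it on both) was found in 16.2% of the members against 3.05% of all promoters. The ETS motif CCGGAAG, bound by GABPA, was found in 24.3% of the members against 9.93% of all promoters. The YY1 motif AAGATGGCG, which can overlap an ETS motif by 3 bases, stood in 10.8% of the members against 1.64% of all promoters and the ERR motif TCAAGGTCA in 2.70% of the members against 0.466% of all promoters. The windows of all genes include many that are not expressed here. Members that rose and fell in HD-het cells were 0 and 4 of 12 with the NRF1 motif, 2 and 5 of 18 with the ETS motif, 1 and 3 of 8 with the YY1 motif, 0 and 0 of 2 with the ERR motif and 9 and 16 of 38 with none of them, beside 33.8% higher and 31.4% lower of all tested genes. In HD-homo cells they were 3 and 2 of 12 with the NRF1 motif, 4 and 3 of 18 with the ETS motif, 4 and 0 of 8 with the YY1 motif, 0 and 1 of 2 with the ERR motif and 10 and 9 of 38 with none of them, beside 29.6% higher and 28.9% lower. Higher and lower in HD-homo than HD-het cells were 7 and 2 of 12 with the NRF1 motif, 6 and 1 of 18 with the ETS motif, 4 and 0 of 8 with the YY1 motif, 1 and 0 of 2 with the ERR motif and 13 and 11 of 38 with none of them, beside 36.0% higher and 35.6% lower. A promoter can hold several motifs, and the groups were not tested against each other. A match is a description and not a bound site. The windows below are those of 2 members of chromosome 15 and 1 of chromosome 10 that fell in HD-het cells (Atp5g2 at chr15:102670998-102671297, minus strand; Ndufa6 at chr15:82354242-82354541, minus strand; Uqcr11 at chr10:80406772-80407071, minus strand), of Sdhb, which did not pass in either HD line (chr4:140961021-140961320, plus strand), and of Ndufv3, the member that rose most (chr17:31519865-31520164, plus strand). Capitals mark the motifs.
Atp5g2: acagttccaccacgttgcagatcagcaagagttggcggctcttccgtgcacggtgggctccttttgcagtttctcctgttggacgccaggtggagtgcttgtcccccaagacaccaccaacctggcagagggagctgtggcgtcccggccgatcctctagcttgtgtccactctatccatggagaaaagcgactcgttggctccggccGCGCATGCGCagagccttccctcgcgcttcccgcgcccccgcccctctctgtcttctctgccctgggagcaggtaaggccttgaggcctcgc
Ndufa6: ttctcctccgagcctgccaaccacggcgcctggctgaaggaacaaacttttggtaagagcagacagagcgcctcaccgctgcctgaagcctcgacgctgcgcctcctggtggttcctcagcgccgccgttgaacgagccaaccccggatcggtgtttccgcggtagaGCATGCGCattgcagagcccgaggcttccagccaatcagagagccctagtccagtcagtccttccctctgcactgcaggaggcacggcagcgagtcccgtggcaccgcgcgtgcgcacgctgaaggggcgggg
Uqcr11: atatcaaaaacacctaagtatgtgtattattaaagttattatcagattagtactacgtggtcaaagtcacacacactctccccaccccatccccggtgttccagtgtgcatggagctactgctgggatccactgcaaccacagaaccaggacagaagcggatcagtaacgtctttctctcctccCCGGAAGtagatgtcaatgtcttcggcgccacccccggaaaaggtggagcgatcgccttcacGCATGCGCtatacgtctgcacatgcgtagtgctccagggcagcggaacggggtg
Sdhb: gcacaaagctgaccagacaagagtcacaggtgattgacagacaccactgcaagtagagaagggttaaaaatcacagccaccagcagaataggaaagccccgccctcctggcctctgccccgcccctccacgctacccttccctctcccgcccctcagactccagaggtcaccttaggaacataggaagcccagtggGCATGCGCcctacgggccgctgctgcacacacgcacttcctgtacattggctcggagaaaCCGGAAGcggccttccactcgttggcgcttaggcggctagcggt
Ndufv3: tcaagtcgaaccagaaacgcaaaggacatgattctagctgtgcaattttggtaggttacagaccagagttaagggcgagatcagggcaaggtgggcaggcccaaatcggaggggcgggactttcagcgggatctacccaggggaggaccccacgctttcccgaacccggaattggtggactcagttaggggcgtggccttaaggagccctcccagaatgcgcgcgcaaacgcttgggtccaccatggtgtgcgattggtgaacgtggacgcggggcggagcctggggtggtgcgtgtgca

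The windows of Atp5g2 and Ndufa6 hold an NRF1 motif, those of Uqcr11 and Sdhb hold an NRF1 and an ETS motif, and that of Ndufv3 holds none of the 4. Those of Atp5b, Atp5d and Ndufa12, members that also fell in HD-het cells and are not printed, hold none of the 4 either.

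Other factors that build these complexes moved in both directions, and their counts stand beside 33.8% higher and 31.4% lower of all tested genes in HD-het cells, 29.6% higher and 28.9% lower in HD-homo cells and 36.0% higher and 35.6% lower between the HD lines. Of 10 tested complex I assembly factors with other names, 4 rose and 3 fell (median 0.12) in HD-het cells, from Timmdc1 at 0.80 to Acad9 at -0.52. In HD-homo cells 3 rose and 1 fell (median 0.082), from Timmdc1 at 0.40 to Acad9 at -0.26. Of 22 complex IV assembly factors, 5 rose and 8 fell (median -0.062) in HD-het cells, from Cox20 at 1.31 to Cox14 at -0.74. In HD-homo cells 8 rose and 1 fell (median 0.065), from Coa3 at 0.69 to Sco2 at -0.30. Of 6 complex III factors, 1 rose and 2 fell (median -0.031) in HD-het cells, from Uqcc1 at 0.82 to Uqcc3 at -0.43. In HD-homo cells 2 rose and 0 fell (median -0.033), from Lyrm7 at 1.18 to Uqcc3 at -0.25. Of the 4 complex II factors, 0 rose and 1 fell (median -0.02) in HD-het cells, from Sdhaf3 at 0.21 to Sdhaf2 at -0.42. In HD-homo cells 0 rose and 0 fell (median 0.075), from Sdhaf4 at 0.21 to Sdhaf1 at -0.24. Of 3 ATP synthase factors 0 rose and 3 fell (median -0.30) in HD-het cells, from Atpaf1 at -0.20 to Atpaf2 at -0.34. In HD-homo cells 1 rose and 1 fell (median -0.12), from Atpaf1 at 0.30 to Atpaf2 at -0.29. In HD-homo against HD-het cells the 5 lists had, in the order given, 2 higher and 3 lower, 10 higher and 3 lower, 4 higher and 1 lower, 2 higher and 1 lower and 1 higher and 0 lower. Values at the ends of a list are log2 fold changes and need not pass the test.

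The same shares of all genes apply to the lists that follow. Of 7 tested subunits and carriers outside the symbol rule, 1 rose and 3 fell (median -0.22) in HD-het cells, from Atpif1 at 0.23 to Chchd10 at -0.53. In HD-homo cells 0 rose and 1 fell (median 0.13), from Higd1a at 0.20 to Chchd10 at -3.01, with 4 higher and 1 lower between the HD lines. Cycs, the cytochrome c that Cyc1 reduces, was at 209.7, 209 and 234 CPM in control, 174, 166 and 201 CPM in HD-het and 213, 191 and 232 CPM in HD-homo cells. The change was -0.27 in HD-het cells (log2, edgeR adjusted p = 0.0196) with all HD-het libraries below control. Of 15 listed rows for coenzyme Q synthesis, 7 rose and 2 fell (median 0.19) in HD-het cells, from Coq8a at 0.73 to Pdss2 at -0.61. In HD-homo cells 6 rose and 2 fell (median 0.10), from Adck3 at 1.07 to Pdss2 at -0.37, with 2 higher and 4 lower between the HD lines. Coq8a and Coq8b also stand in the table under their older symbols Adck3 and Adck4, so that each of these genes stands in the list under both names.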

How the data were processed

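The labels describe poly(A) RNA of 9 samples of striatal cells, prepared with a directional kit. The authors deposited whole-number counts of reads per gene symbol. The submitters' processing notes name cutadapt, Bowtie 1.1.2, RSEM 1.3.0, DESeq2 and GRCm38.p5 (mm10) without their roles, so the counts may be rounded RSEM estimates, in which reads shared by near-identical genes are split. From the counts, edgeR 4.0.16 in R 4.3.3 was run on all 9 libraries together: filterByExpr (minimum count 10), TMM scaling, 1 mean per line, the quasi-likelihood test and Benjamini-Hochberg adjustment over 13508 genes. The code was tested on simulated data, with genes changed up or down in HD-het libraries. Of 100 genes changed 1.25-fold 9 were called, and of 100 changed 2-fold 75 were called. Of all 93 calls in that comparison 9 were false. The simulation changed few of its 12786 genes, drawn at any level, whereas 8797 of 13508 were called in HD-het against control cells. Its shares therefore check the code and do not measure how often changes of the members are found. DESeq2 1.42.0, other filters and scaling, stricter thresholds, a replicate block and leaving out each library were alternatives, and ranges over alternatives include DESeq2. Positions came from GENCODE M21 (GRCm38) and promoters from RefSeq (GRCm38.p6). Genes named with values are the core subunits of complex I, complex II, isoform pairs, the c-ring genes, the 2 highest and 2 lowest of each complex, and a few others chosen after their values were seen. For 1 core subunit, counted with the rest, values are not reported here. The members and lists were chosen with earlier results of these data known.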

Additional observations from a re-analysis of the deposited data

How the results depend on the processing

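The counts of members that rose and fell in each comparison stayed within 1.5 times the reported ones under DESeq2's Wald test, DESeq2 size factors, library totals, TMM without the members, both filters and the fit of only 2 lines. At an adjusted p under 0.01, 7 rose in HD-het and 13 in HD-homo cells, and 13 were lower in HD-homo than HD-het cells. Where changes under 0.5 (log2, either way) were not called, 2 rose and 9 fell in HD-het cells, 2 rose and 5 fell in HD-homo cells, and 11 were higher and 2 lower between the HD lines, by the construction of that limit. Leaving out 1 library gave 7 to 19 higher and 30 to 36 lower in HD-het cells. The HD-homo counts ran from 14 to 27 and 14 to 20, and 29 to 37 and 15 to 22 between the HD lines. Uqcrb, which did not pass in HD-het cells, went from 0.021 to -0.018 without control replicate 2 and to -0.015 without HD-het replicate 3, and to 0.076 without control replicate 3 (log2), and the cause was not tested. Of 1479 values of the named members under alternatives, 1415 kept their direction and their side of the threshold, 37 lost the call and 25 gained one. The medians of the complexes moved beyond the spread between replicates in 7 of 252 values. Same-numbered libraries correlated between -0.00532 and 0.145 in their deviations from the line means, and 8 of 9 correlated best with their own number. The main fit did not pair them, and whether the number marks a shared preparation was not tested. With a replicate block 19 members rose and 37 fell in HD-het cells, and 25 rose and 19 fell in HD-homo cells. Between the HD lines 36 members were higher and 20 lower in HD-homo cells. Among all tested genes the block called 9160, 8372 and 9938 in the same order, in place of 8797, 7910 and 9666. With 3 libraries of 1 line per genotype, small changes of single subunits are the least certain.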

Other observations

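The pathways that feed the respiratory chain were read in the same fit. Of 17 glycolytic genes, 3 rose and 13 fell in HD-het cells and 3 rose and 7 fell in HD-homo cells, with medians of -0.30 and -0.21 (log2). Of all tested genes, 33.8% higher and 31.4% lower were called in HD-het cells, 29.6% higher and 28.9% lower in HD-homo cells and 36.0% higher and 35.6% lower between the HD lines, and the counts of the lists given next stand beside these shares. The values ran from Ldhb at 2.72 to Pfkl at -1.36 in HD-het and from Ldhb at 3.02 to Gpi1 at -0.66 in HD-homo cells, Ldhb being a subunit of lactate dehydrogenase. Of 14 citrate cycle genes, 4 rose and 5 fell (median -0.12) in HD-het cells, from Idh3b at 0.23 to Suclg2 at -1.19. In HD-homo cells 2 rose and 8 fell (median -0.18), from Suclg1 at 0.21 to Cs at -0.37. Of 12 genes of pyruvate dehydrogenase, its kinases, its phosphatases and the pyruvate carrier, 4 rose and 2 fell (median 0.10) in HD-het cells, from Pdk2 at 1.13 to Pdp2 at -0.88. In HD-homo cells 4 rose and 5 fell (median -0.001), from Pdk1 at 3.29 to Pdk4 at -1.22, and Pdk1 is a kinase that turns the enzyme off. Of 14 tested genes known to be induced by hypoxia, 7 rose and 3 fell (median 0.13) in HD-het cells, with Ndrg1 highest at 0.90 and Adm at or under 3 counts in every HD-het library. In HD-homo cells 6 rose and 4 fell (median 0.094), from Adm at 4.16 to Ankrd37 at -1.04. In HD-homo against HD-het cells the 4 lists had, in the order given, 7 higher and 4 lower, 6 higher and 5 lower, 2 higher and 6 lower and 7 higher and 4 lower. The values at the ends of a list are log2 fold changes by edgeR's quasi-likelihood test.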
